A study of Mus musculus with 18 samples.

Results

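T cells that carried Il17a or Il17f messenger RNA were followed in 3 gut compartments of St8sia6 knockout (KO), heterozygous (het) and wild-type (WT) mice. A cell counted as an IL-17 T cell when it held at least 1 Cd3e molecule, at least 1 molecule of Il17a or Il17f, and no molecule of Foxp3, Cd79a, Lyz2 or Epcam. The last 4 genes mark regulatory T cells, B lineage cells, myeloid cells and epithelium. This selected 311 of 59338 cells, with 48 in the small bowel epithelium, 154 in the small bowel lamina propria and 109 in the colon. The other 12478 T cells of the same gate had no Il17a or Il17f molecule and served as the comparison. The members were chosen by their measured molecules of these 7 genes, which are therefore described and not tested.

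Each compartment had 3 gene expression libraries with a hashtag library each, 18 samples in all. Mice lacked both, 1 or no copy of St8sia6, a sialyltransferase gene, and every one of 3 runs took 1 KO mouse, 1 het mouse and 2 WT mice. Leukocytes had been enriched with CD45 beads after a Percoll step, labelled with 1 hashtag antibody per genotype, and pooled by organ before droplet capture. The colon preparation joined lamina propria and epithelium, and the WT cells of a run came from 2 animals under 1 hashtag. The labels give neither the age, sex or strain of the mice nor the part of the gene that was deleted, and the deletion is not stated to be limited to a cell type.

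Genotype was read from the barcode ending, and the leading hashtag matched it in all 311 IL-17 T cells. A stricter rule, with at least 80% of at least 10 hashtag molecules from 1 hashtag, passed 190 of the 311. In the epithelium 16 of 31 KO, 14 of 14 het and 3 of 3 WT cells passed, in lamina propria 56 of 94, 43 of 43 and 12 of 17, and in colon 15 of 50, 19 of 20 and 12 of 39. Over all cells 3 of the 27 sets of library and genotype matched less well. The cells assigned to WT led with the WT hashtag in 55.5% of lamina propria library 3, with a median of 1420 molecules, in 72.9% of epithelial library 2 and in 84.4% of epithelial library 1. The first stood apart most, so results that rest on it are also given without it. No barcode was shared between the IL-17 T cells of different libraries. Median depth was 5378.5 molecules in epithelial IL-17 T cells against 4877 in the other epithelial T cells, 2830 against 2479 in lamina propria, and 5143 against 4815 in colon. St8sia6 could not check the genotype, since the transcript was found in 2 IL-17 T cells in all, both from het lamina propria.

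IL-17A and IL-17F are cytokines that act on epithelium and stroma to call in neutrophils and raise antimicrobial defence. In the gut they come mainly from CD4 helper T cells of the Th17 type and from gamma-delta T cells, which share the receptors for IL-23 and IL-1, and the chemokine receptor CCR6. Many of these cells also make IL-22, which acts on epithelial cells, and in mice certain gut bacteria are known to induce Th17 cells.

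The promoters of Il17a and Il17f, which the gate used, and of Il23r and Ccr6, markers it did not use, are shown because nuclear receptors, among them the Th17 regulator RORα (Rora), bind DNA at copies of AGGTCA. Each window holds the 250 bases before the annotated start, read 5′ to 3′ on the gene's strand, from RefSeq on GRCm38.p6. Capitals mark each AGGTCA or its reverse complement TGACCT, which do not overlap in these windows.
Il17a: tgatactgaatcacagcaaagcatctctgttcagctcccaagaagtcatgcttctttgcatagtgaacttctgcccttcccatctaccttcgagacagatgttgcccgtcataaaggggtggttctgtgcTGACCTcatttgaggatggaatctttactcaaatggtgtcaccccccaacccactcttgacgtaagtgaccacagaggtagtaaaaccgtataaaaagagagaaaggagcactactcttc
Il17f: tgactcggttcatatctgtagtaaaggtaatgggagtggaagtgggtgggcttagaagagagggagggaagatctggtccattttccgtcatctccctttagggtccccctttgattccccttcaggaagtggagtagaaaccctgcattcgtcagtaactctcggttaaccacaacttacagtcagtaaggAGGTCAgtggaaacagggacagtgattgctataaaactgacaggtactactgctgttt
Il23r: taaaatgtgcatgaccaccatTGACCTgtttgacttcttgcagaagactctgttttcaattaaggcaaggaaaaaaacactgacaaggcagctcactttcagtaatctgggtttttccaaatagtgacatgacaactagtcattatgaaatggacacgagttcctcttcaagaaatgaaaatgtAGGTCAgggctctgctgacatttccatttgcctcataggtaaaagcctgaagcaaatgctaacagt
Ccr6: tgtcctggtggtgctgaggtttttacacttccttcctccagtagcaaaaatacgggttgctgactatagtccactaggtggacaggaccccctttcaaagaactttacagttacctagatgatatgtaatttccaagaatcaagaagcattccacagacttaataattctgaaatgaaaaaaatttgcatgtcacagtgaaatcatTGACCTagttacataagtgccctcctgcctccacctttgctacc
They lie at chr1:20730655-20730904 on the plus strand, chr1:20784271-20784520 on the minus strand, chr6:67491856-67492105 on the minus strand and chr17:8235793-8236042 on the plus strand. The windows held 1, 1, 2 and 1 copies, and the copy in Il17f began 58 bases before the start. A second annotated start of Ccr6 had none. Of 32851 such mouse windows, 14.0% held at least 1 copy on either strand, so a match is a description of the letters and not a binding site.

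The cells carried far more Il17a than Il17f molecules. Il17a measured 8991, 5287 and 3924 CPM (the gene's molecules scaled to the same total in every sum) in epithelial libraries 1 to 3, 6214, 6432 and 4116 in lamina propria, and 4635, 5702 and 5874 in colon. Il17f measured 325, 186 and 82.9 CPM in the epithelium, 352, 503 and 630 in lamina propria, and 1372, 208 and 1729 in colon. Il17a alone was detected in 38 of 48, 112 of 154 and 64 of 109 cells, Il17f alone in 4, 4 and 9, and both in 6, 38 and 36. A cell held a median of 26.5 molecules of the 2 genes together in the epithelium, 9 in lamina propria and 19 in colon, and at most 272, 135 and 332. The epithelial cell with 272, all of Il17a, was a KO cell of library 2. It held 34768 of the 107437 molecules of that library's IL-17 T cells, whose KO cells had 355 Il17a molecules together. Cells just inside the gate, with exactly 1 molecule, numbered 10, 24 and 21. The cells just outside had 0.

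Cells of other types also held some of these molecules. Among B cells, which should lack both genes, 0 of 440 had an Il17a or Il17f molecule in the epithelium, which allows a share of up to 0.682%. The share was 0.49% in lamina propria and 0.212% in colon, at median depths of 4050.5, 2385.5 and 4027 molecules. Among epithelial cells, with Epcam and without Cd3e and Cd79a, the shares were 0.0627%, 0.876% and 0.545%, and among myeloid cells 0 of 34 in the epithelium, 1.77% in lamina propria and 0.427% in colon. The gate left out many cells with the message. In the lamina propria 685 cells had an Il17a or Il17f molecule, of which 313 had no Cd3e molecule and 218 more carried an excluded gene. In the colon the corresponding numbers were 390, 61 and 220, and in the epithelium 69, 2 and 19. The excluded Cd3e-positive cells were deep, with medians of 17357 molecules in lamina propria and 15349 in colon. The members thus held 78.1% of all Il17a and Il17f molecules in the epithelium, 32.6% in lamina propria and 36.3% in colon.

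The T cell label was checked against markers that the rule did not use. Cd3g, a further CD3 subunit, was detected in 45 of 48, 118 of 154 and 105 of 109 cells, and Lat, an adaptor of T cell receptor signalling, in 45, 122 and 103. Trac, the alpha chain constant gene, was found in 40, 83 and 64. Markers of other lineages varied in frequency. Ncr1, of natural killer cells and some innate lymphoid cells, was at 0 in all 3 compartments, Ms4a1, of B cells, in 0, 1 and 2 cells, and Csf1r, of macrophages, in 0, 1 and 1. Kit, which innate lymphoid cells and some precursors carry, was detected in 41.7% of epithelial IL-17 T cells and 12.4% of other epithelial T cells. In lamina propria the shares were 14.3% and 6.7%, and in colon 11.9% and 14.6%. Il1r1 and Tnfsf11, listed here for innate lymphoid cells as well, were higher in IL-17 T cells of all 3 compartments, as given below. Whether some members were innate lymphoid cells was not tested. Igha, the immunoglobulin A gene, was found in 6.2% of IL-17 T cells and 10.0% of other T cells in the epithelium, 100% and 99.7% in lamina propria, and 67.9% and 72.0% in colon.

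IL-17 T cells made up the greatest share of T cells in the lamina propria. They were 0.95%, 0.44% and 0.32% of gated T cells in epithelial libraries 1 to 3, 9.74%, 13.7% and 12.2% in lamina propria, and 5.00%, 2.95% and 4.75% in colon. The ranges of the 3 compartments did not overlap. As a share of all cells they did in part, with 0.17 to 0.47% in the epithelium, 0.55 to 0.91% in lamina propria and 0.39 to 0.73% in colon. Among T cells with Cd4 and without Cd8a, the shares were 5.17 to 6.22% in the epithelium, 23.7 to 33.3% in lamina propria and 9.62 to 23.9% in colon. With that denominator the ranges of lamina propria and colon overlapped. The differences in the share of T cells were -11.3 percentage points for epithelium minus lamina propria, -3.67 for epithelium minus colon and 7.63 for lamina propria minus colon (two-sided exact permutation tests over libraries, p = 0.1 each, adjusted 0.1 over 3 tests). With 3 libraries against 3 this test cannot go below 0.1, and p-values here measure the spread between libraries. The gated T cells had median depths of 4883, 2512 and 4849 molecules in the epithelium, lamina propria and colon. With every cell thinned to 1000 molecules the shares were 0.13 to 0.68%, 7.87 to 9.94% and 1.97 to 3.49%, still apart.

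The IL-17 T cells of every compartment carried the type 17 program. Il23r, the subunit of the IL-23 receptor that keeps Th17 cells going, was detected in 54.2% of epithelial IL-17 T cells against 0.67% of other T cells, in 61.0% against 10.1% in lamina propria, and in 57.8% against 1.70% in colon. In B cells the shares were 0%, 0.74% and 0.14%. After thinning every cell to 1000 molecules, which left out 1, 2 and 0 IL-17 T cells and 89, 52 and 32 other T cells, they were 21.1% against 0.26%, 32.1% against 5.80%, and 23.5% against 0.66%. Any of Il23r, Il1r1 or Ccr6 was found in 40 of 48 epithelial IL-17 T cells and 159 of 8802 other T cells, 125 of 154 and 163 of 1141 in the lamina propria, and 83 of 109 and 110 of 2535 in the colon. The remaining 8, 29 and 26 IL-17 T cells had none of the 3.

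**Figure D1:**
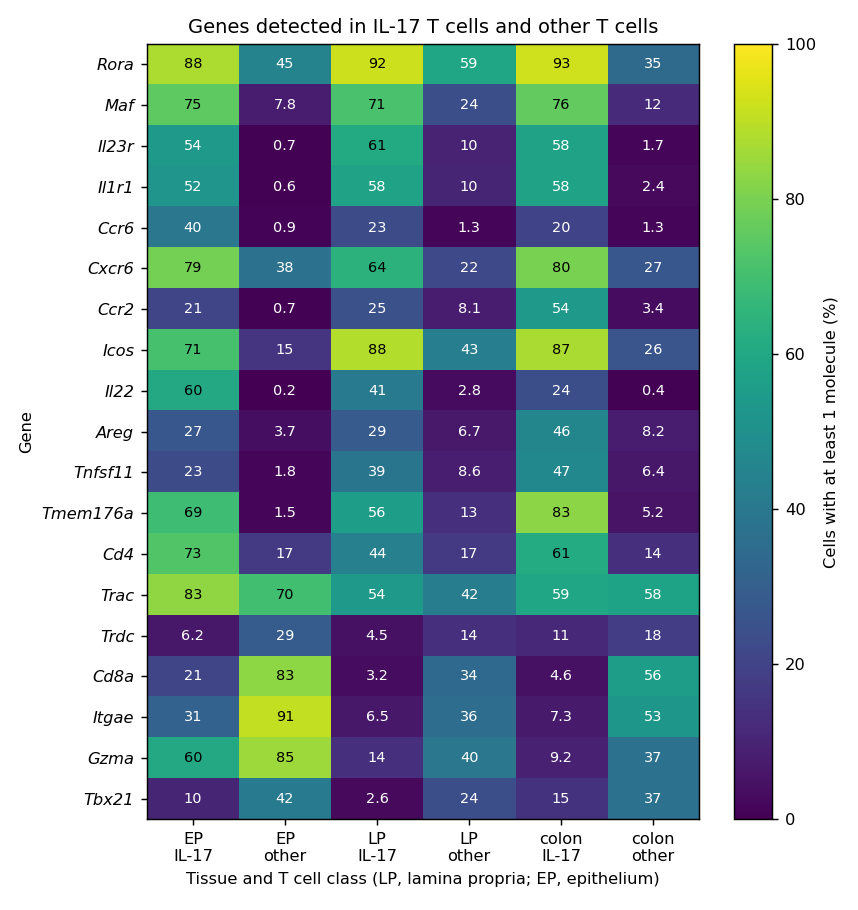
Share of cells (%) with at least 1 molecule of 19 genes, in rows, for IL-17 T cells beside other T cells of the epithelium, lamina propria and colon, in columns; shading follows the printed percentages. Il23r was detected in 54.2, 61.0 and 57.8% of IL-17 T cells against 0.67, 10.1 and 1.70% of other T cells, while Itgae was detected in 31.2, 6.5 and 7.3% against 90.9, 35.7 and 53.0%.

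Other messages were counted in cells with and without Il22. In the epithelium 29 of 48 IL-17 T cells had Il22, of which 51.7% also had Ifng, against 21.1% of the cells without Il22, and 37.9% had Areg, against 10.5%. Il22 was found in 63 of 154 lamina propria IL-17 T cells, and Ifng was found in 20.6% of them against 5.49% of those without, while Areg was found in 23.8% against 31.9%. In the colon 26 of 109 had Il22, and Ifng was found in 42.3% against 30.1% and Areg in 53.8% against 43.4%. Il23r was found in 62.1% of Il22-positive cells against 42.1% of the others in the epithelium, 74.6% against 51.6% in lamina propria, and 76.9% against 51.8% in colon. Deeper cells show more genes of every kind, and these shares within single cells were not tested.

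Across all genes, IL-17 T cells were compared with the other T cells of the same libraries in sums of 10 to 60 IL-17 T cells per library (36192 to 281059 molecules). Of 8860 genes tested, edgeR called 552 in the epithelium (309 higher and 243 lower, 6.23% of genes tested), 536 in lamina propria (278 and 258, 6.05%) and 973 in colon (604 and 369, 11%) at an adjusted p under 0.05. Higher genes were 3.49, 3.14 and 6.82% of those tested, and lower genes 2.74, 2.91 and 4.16%. Higher in all 3 compartments were 145 genes, which is 46.9% of the higher genes of the epithelium, 52.2% of those of the lamina propria and 24.0% of those of the colon. Lower in all 3 were 108, which is 44.4%, 41.9% and 29.3%. The 3 comparisons were fitted together but share no cells. Some lamina propria cells also held at least 2 of 7 endothelial genes, as given below. Without such cells edgeR called 480 genes in lamina propria, 399 of them among the 536. Of the 536, 510 were still tested and 501 kept their sign. The genes shared by all 3 compartments were not recounted without these cells. Cd8a was detected in 83.0%, 34.1% and 56.1% of the other T cells and in 20.8%, 3.2% and 4.6% of the IL-17 T cells. With Cd4-positive, Cd8a-negative cells in both classes, edgeR called 139, 140 and 396 of 4641 genes. Of these, 117, 122 and 278 were among the calls with all cells. Of the calls with all cells, 434, 459 and 771 were still tested, and 412, 452 and 708 kept their sign. Several genes below are given without their value in this setting.

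More than 10 transcription factors of the type 17 program were higher in each compartment. Of 20 tested regulators, 12 were higher and 1 lower in the epithelium, 12 and 1 in lamina propria, and 16 and 1 in colon. Their median log2 ratios were 1.36, 0.61 and 1.60, against -0.12, -0.07 and -0.05 over all genes. Maf, a factor that shapes cytokine output in Th17 cells, measured 650, 354 and 276 CPM in epithelial IL-17 T cells against 43.5, 27.5 and 27 in other T cells, 543, 486 and 491 against 186, 211 and 227 in lamina propria, and 519, 361 and 463 against 65.4, 70.9 and 45.9 in colon. Its log2 ratios were 3.70, 1.25 and 2.96. Among Cd4-positive, Cd8a-negative cells, Maf had a log2 ratio of -0.14 in the lamina propria, with edgeR adjusted p 0.866. Rora, a nuclear receptor, was higher by 1.82, 1.06 and 2.45, Batf by 1.40, 1.42 and 2.20, and Irf4 by 1.89, 1.53 and 2.94 on the log2 scale. Without epithelial library 1, Irf4 in the epithelium was 0.92 and not called. Batf and Irf4 are partner factors that open chromatin early in Th17 differentiation. Ikzf2 (Helios), found in regulatory and intraepithelial T cells, was the single regulator that was lower, by -2.03, -2.16 and -2.65.

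Receptors that feed the type 17 program were higher too. Of 17 tested, 8 were higher in the epithelium, 6 in lamina propria and 10 in colon, where 1, Il6st, was lower. Il23r measured 371, 177 and 138 CPM in epithelial IL-17 T cells against 4.39, 3.63 and 2.64 in other T cells, 367, 417 and 268 against 78.2, 74.9 and 81.0 in lamina propria, and 208, 311 and 320 against 8.44, 11.3 and 6.50 in colon. Every IL-17 library lay above every library of other T cells. The log2 ratios were 5.98 (SE 0.32, edgeR adjusted p 5.68e-14), 2.14 (SE 0.22, edgeR adjusted p 9.35e-08) and 5.08 (SE 0.24, edgeR adjusted p 4.42e-15). Among Cd4-positive, Cd8a-negative cells they were 3.36, 1.41 and 3.12, all called by edgeR. Il1r1, the IL-1 receptor, had log2 ratios of 6.67, 2.14 and 5.08, and 3.97, 1.63 and 3.07 among Cd4-positive, Cd8a-negative cells. Ccr6, which guides cells to CCL20 at lymphoid follicles, measured 221, 130 and 221 CPM against 2.70, 2.65 and 1.82 in the epithelium, 125, 68.1 and 117 against 5.52, 1.76 and 7.18 in lamina propria, and 133, 59.3 and 39.1 against 2.50, 4.40 and 2.52 in colon. The classes again did not overlap, and the log2 ratios were 6.19 (SE 0.56, edgeR adjusted p 3.3e-09), 4.45 (SE 0.58, edgeR adjusted p 4.53e-06) and 4.50 (SE 0.55, edgeR adjusted p 5.42e-07). Il17re, a subunit of the receptor for IL-17C, was higher by 6.11, 3.36 and 5.23 and Il18r1, of the IL-18 receptor, by 4.10, 1.22 and 2.75. In the lamina propria Il17re was not called without library 1 (2.95) or library 2 (3.53).

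**Figure D2:**
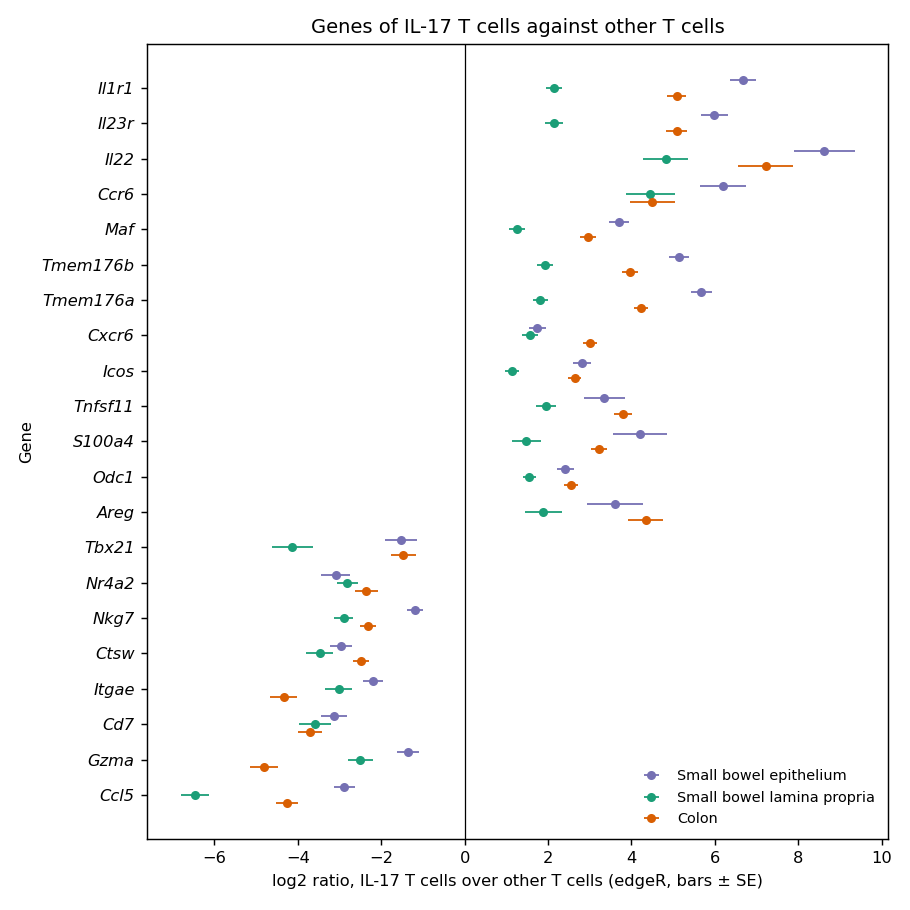
Log2 ratio of IL-17 T cells to other T cells (x axis) with its standard error for 21 genes (rows), in the epithelium, lamina propria and colon; the line at 0 marks equal levels. Il23r sits at 5.98, 2.14 and 5.08 and Ccl5 at -2.88, -6.47 and -4.27.

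Among cytokines, 8 of 16 tested were higher in the epithelium, 6 in lamina propria and 11 in colon, and none was lower at edgeR adjusted p under 0.05. Il22 measured 1866, 1396 and 193 CPM in epithelial IL-17 T cells against 4.16, 1.21 and 3.38 in other T cells, 1497, 2675 and 1311 against 80.1, 71.4 and 37.9 in lamina propria, and 634, 356 and 2295 against 1.56, 17.6 and 1.05 in colon. No library of other T cells reached the lowest IL-17 library. The log2 ratios were 8.62 (SE 0.73, edgeR adjusted p 9.26e-10), 4.82 (SE 0.55, edgeR adjusted p 5.39e-07) and 7.21 (SE 0.66, edgeR adjusted p 2.59e-09). Areg, an epidermal growth factor family ligand linked to tissue repair, measured 195, 121 and 111 CPM against 13.7, 12.2 and 8.78 in the epithelium, 470, 601 and 173 against 70.9, 88.2 and 177 in lamina propria, and 479, 815 and 2071 against 91.9, 37.0 and 39.0 in colon. Only in the lamina propria did 1 IL-17 library fall within the range of the other T cells. Its log2 ratios were 3.61, 1.89 and 4.34, and it was not called in the lamina propria without library 2 (1.32), nor in the epithelium without library 1 (3.34).

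Further cytokines were compared in each compartment. Tnfsf11 (RANKL), which acts on lymphoid stroma and epithelium, was higher by 3.35, 1.95 and 3.79, and Tnfsf8, the CD30 ligand, by 3.64, 2.90 and 2.54 on the log2 scale. Ifng, the main type 1 cytokine, was higher in the epithelium (2.25, SE 0.32, edgeR adjusted p 1.04e-05) and colon (1.12, SE 0.30, edgeR adjusted p 0.0112). In the colon it was not called without library 3 (0.67). In the lamina propria it measured 51.4, 85.2 and 44.6 CPM in IL-17 T cells against 100, 115 and 57.4 in other T cells and was not called. Tbx21, the lineage factor of type 1 cells, was lower in all 3, by -1.53 (SE 0.39, edgeR adjusted p 0.0131), -4.13 (SE 0.49, edgeR adjusted p 1.1e-06) and -1.47 (SE 0.30, edgeR adjusted p 0.000882). It was not called in the epithelium without library 1 (-1.75) or 2 (-1.52), nor in the colon without library 3 (-1.09). Il10 was called in the colon alone (3.49, SE 0.73, edgeR adjusted p 0.00106). Cxcl3, a neutrophil chemokine, was held by few cells, with 69 molecules in epithelial IL-17 T cells against 1 in other T cells, 209 against 10 in lamina propria and 229 against 1 in colon.

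Most cytotoxic genes tested were lower. Of 12, 9 were lower in the epithelium, 11 in lamina propria and 9 in colon, none was higher at edgeR adjusted p under 0.05, and the medians were -1.92, -2.32 and -2.37. Gzma, a granzyme, measured 5812, 7893 and 6355 CPM in epithelial IL-17 T cells against 16113, 15914 and 17265 in other T cells, 1328, 954 and 357 against 5167, 4748 and 3478 in lamina propria, and 17.3, 272 and 431 against 5776, 6933 and 6751 in colon. The ranges stayed apart in each compartment, with log2 ratios of -1.36 (SE 0.27, edgeR adjusted p 0.00102), -2.50 (SE 0.29, edgeR adjusted p 8.21e-07) and -4.81 (SE 0.33, edgeR adjusted p 9.58e-12). Among Cd4-positive, Cd8a-negative cells Gzma was not called in any, with log2 ratios of -1.08, -0.70 and 0.53. Ccl5, a chemokine of cytotoxic T cells, was lower by -2.88, -6.47 and -4.27, and still by -4.22, -4.03 and -1.60 among Cd4-positive, Cd8a-negative cells. Itgae (CD103), which holds T cells to epithelium through E-cadherin, measured 208, 112 and 359 CPM against 835, 925 and 909 in the epithelium, 14.7, 51.1 and 22.3 against 264, 276 and 217 in lamina propria, and 23.1, 24.7 and 7.12 against 330, 406 and 339 in colon. The log2 ratios were -2.19, -3.02 and -4.34. Among Cd4-positive, Cd8a-negative cells edgeR called Itgae in the epithelium only (-2.19), with -1.93 and -1.84 in the lamina propria and colon. Xcl1, a further chemokine of cytotoxic cells, had 0 molecules in epithelial IL-17 T cells, which is at least 17.5-fold lower than in other T cells (against a floor of 3 molecules over the group).

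Activation and surface receptor genes moved in both directions. Of 22 tested immediate early and activation genes, 15 were higher and 1, Nr4a2, lower in the epithelium, 9 and 1 in lamina propria, and 13 and 2 in colon. Icos, a costimulatory receptor of helper T cells, measured 894, 875 and 954 CPM in colon IL-17 T cells against 146, 152 and 157 in other T cells, with log2 ratios of 2.81, 1.14 and 2.64 from epithelium to colon. Cxcr6, a homing receptor of tissue T cells, measured 819, 657 and 954 CPM in the colon against 102, 108 and 105, with log2 ratios of 1.74, 1.57 and 3.00. Ctla4, an inhibitory receptor, was higher by 2.80, 1.56 and 2.74. Tmem176a, a membrane protein gene, measured 429, 251 and 304 CPM against 7.01, 6.11 and 5.41 in the epithelium, 352, 400 and 402 against 102, 112 and 108 in lamina propria, and 698, 588 and 630 against 44.7, 28.5 and 34.8 in colon. The classes did not overlap, and its log2 ratios were 5.67, 1.81 and 4.23.

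Of 16 tested genes of sialic acid transfer and removal, the pathway of St8sia6, 1 was higher and 1 lower in the epithelium. The counts were 2 and 1 in lamina propria, and 1 and 3 in colon. Over all genes tested, 3.49, 3.14 and 6.82% were higher and 2.74, 2.91 and 4.16% lower. Whether the pathway departs from these shares was not tested. The 2 pathway genes that were called the same way in all 3 compartments are among the 145 higher and 108 lower genes given above. St6galnac3, a sialyltransferase of glycolipids and O-glycans, was higher by 1.49, 0.89 and 1.46. St8sia4, a polysialyltransferase, measured 137, 102 and 111 CPM in epithelial IL-17 T cells against 239, 261 and 243 in other T cells, 95.4, 153 and 139 against 259, 282 and 246 in lamina propria, and 34.6, 124 and 53.4 against 155, 168 and 142 in colon. The classes did not overlap, and the log2 ratios were -1.07, -1.03 and -1.10. Among Cd4-positive, Cd8a-negative cells they were -0.28, -0.54 and -0.49, none called by edgeR. Each also missed the threshold without 1 library, at -0.97 without epithelial library 2, -0.89 without lamina propria library 1 and -0.97 without colon library 3.

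Most IL-17 T cells carried Cd4 alone or no coreceptor message. Cd4 without Cd8a or Cd8b1 was found in 30 of 48 in the epithelium (62.5%, 95% Clopper-Pearson interval 47.4 to 76.0), 66 of 154 in lamina propria (42.9%, 34.9 to 51.1) and 64 of 109 in colon (58.7%, 48.9 to 68.1). These intervals cover counting error only. In other T cells the shares were 5.6%, 14.8% and 12.4%, and most of the other epithelial T cells (72.5%) had Cd8a or Cd8b1 without Cd4. Neither coreceptor was found in 14.6%, 53.9% and 33.9% of IL-17 T cells against 10.5%, 45.9% and 29.3% of other T cells. The lamina propria cells were the shallowest, and the part of depth in this share was not tested.

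Cells with Trdc, the constant gene of the delta chain, were few. They numbered 3 of 48 in the epithelium, 7 of 154 in lamina propria and 12 of 109 in colon, 22 in all. By library their share of IL-17 T cells was 8.33%, 0% and 10.0% in the epithelium, 9.76%, 5.00% and 0% in lamina propria, and 12.1%, 20.0% and 4.35% in colon. These ranges overlapped, and no difference between compartments passed 0.05 (two-sided exact permutation tests, p = 0.8 for epithelium minus lamina propria at 1.19 percentage points, 0.4 for epithelium minus colon at -6.05 and 0.3 for lamina propria minus colon at -7.24). Among other T cells 29.2%, 13.9% and 18.3% had Trdc.

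Genes of the innate-like IL-17 gamma-delta subset were found in part of the Trdc-positive cells. Tcrg-V6 and Trdv4, the variable genes of that subset, were each detected in 1 of 3, 3 of 7 and 9 of 12 cells. Cd163l1, a scavenger receptor of that subset, was found in 1, 7 and 10 cells, Zbtb16 (PLZF), a factor of innate-like T cells, in 2, 5 and 10, and Blk, a kinase of IL-17 gamma-delta cells, in 1, 7 and 8. Il23r was found in 2, 7 and 8 of them and Il22 in 1, 3 and 1. Neither Cd4 nor Cd8 was found in 1 of 3, 7 of 7 and 11 of 12. Trac was detected in 2, 0 and 3 of these cells, and a message from Trdc does not by itself show which receptor the cell carried. Sums of at least 10 cells could not be formed in any library, so genes were not tested between Trdc-positive and Trdc-zero cells.

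The IL-17 T cells of the 3 compartments also differed among themselves. In fits of 3664 genes over 9 library sums, edgeR called 521 genes between epithelium and lamina propria (177 higher and 344 lower, 14.2%), 222 between epithelium and colon (81 and 141, 6.06%) and 760 between lamina propria and colon (413 and 347, 20.7%). Higher genes were 4.83, 2.21 and 11.3% of those tested, and lower genes 9.39, 3.85 and 9.47%. Values of other T cells are given beside some of these genes, and whether a difference was larger in IL-17 T cells was not tested. Il23r, Il22, Ccr6 and Cd4 were not called in any of the 3 contrasts. The sums pooled the genotypes, whose mix differed between compartments. KO mice gave 31 of 48 epithelial, 94 of 154 lamina propria and 50 of 109 colon cells, and WT mice gave 3, 17 and 39. The part of genotype in these contrasts was not tested.

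Ccr9, the receptor for the small bowel chemokine CCL25, was low in the colon. It measured 332, 307 and 249 CPM in epithelial IL-17 T cells, 191, 217 and 195 in lamina propria and 5.77, 29.6 and 3.56 in colon. Both small bowel compartments lay above the colon in every library, with log2 ratios of 4.55 (SE 0.43, edgeR adjusted p 1.18e-05) for epithelium to colon and 4.03 (SE 0.42, edgeR adjusted p 1.2e-05) for lamina propria to colon. In other T cells Ccr9 measured 230, 263 and 234 CPM in the epithelium, 155, 173 and 137 in lamina propria and 22.2, 47.3 and 29.8 in colon.

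Cytotoxic genes differed between compartments among IL-17 T cells. Of 7 tested, 5 were higher in the epithelium than in the lamina propria and none lower by edgeR, namely Cst7, Nkg7, Gzma, Gzmb and Ctsw. Against colon, 2 were higher in the epithelium, Nkg7 and Gzma, while in lamina propria 1, Gzma, was higher and 3, Cst7, Nkg7 and Ctsw, were lower. Gzma, with the epithelial, lamina propria and colon levels given above, differed by log2 ratios of 2.88 (SE 0.52, edgeR adjusted p 0.00124) for epithelium to lamina propria, 4.75 (SE 0.57, edgeR adjusted p 0.000107) for epithelium to colon and 1.87 (SE 0.54, edgeR adjusted p 0.0208) for lamina propria to colon. The last was not called without lamina propria library 1 (1.48), lamina propria library 2 (1.80) or colon library 2 (1.90). Ccl5 measured 3712, 1294 and 6383 CPM in the epithelium, 44.0, 115 and 94.8 in lamina propria and 409, 702 and 925 in colon. Other T cells had 21438, 23651 and 23212 CPM of Ccl5 in the epithelium, 8327, 7939 and 6836 in lamina propria and 12633, 14500 and 12599 in colon. The ranges of IL-17 T cells did not overlap, and the log2 ratio of epithelium to lamina propria was 5.30 (SE 0.52, edgeR adjusted p 8.15e-06). Between epithelium and colon it was 2.44 with all cells and 0.69 with Trdc-zero cells only, where edgeR no longer called it (adjusted p 0.301). Itgae was higher in the epithelium by 2.54 (SE 0.50, edgeR adjusted p 0.00243) over the lamina propria, and over the colon by 3.49 (SE 0.54, edgeR adjusted p 0.000916). With Trdc-zero cells only, the log2 ratio of epithelium to lamina propria was 1.79 and not called.

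Naive and recirculation genes ran the other way. Of 6 tested, 5 were lower in the epithelium than in the lamina propria (Bach2, Foxp1, Klf2, Igfbp4 and Satb1). Bach2, a repressor that restrains effector differentiation, measured 32.5, 27.9 and 27.6 CPM in the epithelium, 418, 251 and 284 in lamina propria and 144, 128 and 96.1 in colon. All 3 ranges were apart. The log2 ratios were -3.43 (SE 0.38, edgeR adjusted p 2.99e-05) for epithelium to lamina propria, -1.98 (SE 0.42, edgeR adjusted p 0.0103) for epithelium to colon and 1.44 (SE 0.25, edgeR adjusted p 0.000788) for lamina propria to colon. Without epithelial library 1 the second was -2.09 and not called. Other T cells showed the same order, with 50.5, 40.5 and 36.1 CPM in the epithelium, 471, 475 and 449 in lamina propria and 205, 197 and 189 in colon.

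**Figure D3:**
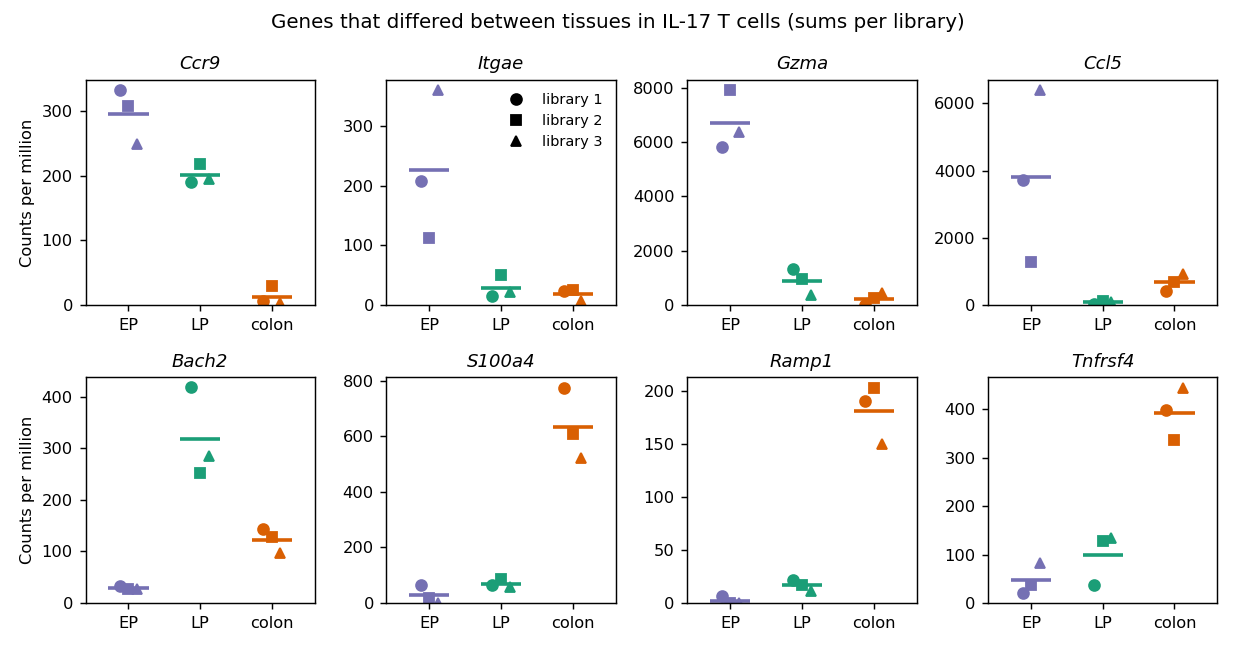
CPM of 8 genes in IL-17 T cells (y axes, 1 panel per gene) by compartment (x axes); each point is 1 library and the line is the mean of 3. Ccr9 lies at 249 to 332 CPM in the epithelium and 3.56 to 29.6 in the colon, and S100a4 at 0 to 65.0 in the epithelium and 523 to 773 in the colon.

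Several effector genes were higher in colon IL-17 T cells, and several metabolic genes were higher there than in lamina propria. S100a4, a calcium-binding protein of effector cells, measured 65.0, 18.6 and 0 CPM in the epithelium, 66.0, 85.2 and 55.8 in lamina propria and 773, 608 and 523 in colon. Other T cells had 2.31, 1.90 and 1.15 CPM of S100a4 in the epithelium, 24.8, 22 and 27.7 in lamina propria and 71.0, 55.9 and 84.5 in colon. The IL-17 T cells of the colon lay above both, with log2 ratios of -4.00 (SE 0.39, edgeR adjusted p 1.39e-05) for epithelium to colon and -3.08 (SE 0.31, edgeR adjusted p 7.41e-06) for lamina propria to colon. Ramp1, a subunit of the receptor for the neuropeptide CGRP, measured 6.50, 0 and 0 CPM in the epithelium, 22, 17.0 and 11.2 in lamina propria and 190, 203 and 149 in colon. Other T cells had 5.09, 3.40 and 3.58 CPM of Ramp1 in the epithelium, 7.36, 8.82 and 11.3 in lamina propria and 24.4, 25.7 and 18.9 in colon. Its log2 ratio was -3.32 (SE 0.38, edgeR adjusted p 2.89e-05) for lamina propria to colon.

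Tnfrsf4 (OX40), a costimulatory receptor, measured 19.5, 37.2 and 82.9 CPM in the epithelium, 36.7, 128 and 134 in lamina propria and 398, 336 and 445 in colon, and in other T cells 9.56, 4.67 and 5.07, 52.4, 83.8 and 85.1, and 83.8, 73.9 and 78.2. The IL-17 T cells of the colon stood clear of the other two compartments, with log2 ratios of -3.50 (SE 0.46, edgeR adjusted p 0.000203) and -1.83 (SE 0.32, edgeR adjusted p 0.000783). Of 14 tested metabolic genes 9 were lower in lamina propria than in colon, among them the glycolytic genes Ldha (-1.75), Aldoa (-1.87), Pkm and Pgk1, and of 12 inhibitory and costimulatory receptors 6 were lower. Areg was lower in the epithelium than in the colon (-2.90, SE 0.53, edgeR adjusted p 0.00379). For lamina propria to colon Areg was -1.38 and not called without colon library 3 (-0.57). Areg was also called between genotypes, as given below, and the part of the genotype mix in its compartment ratios was not tested.

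Igha and sets of endothelial messages were found most often in the IL-17 T cells of lamina propria. Igha measured 19.5, 0 and 0 CPM in epithelial IL-17 T cells, 3412, 3561 and 4958 in lamina propria and 259, 247 and 189 in colon, and the other lamina propria T cells had still more (7811, 11479 and 9045). Of 5 tested plasma cell genes 4 were higher in lamina propria than in colon. Endothelial genes were found in a few cells. Of 154 lamina propria IL-17 T cells 9 (5.84%) held at least 2 of 7 endothelial genes, against 13 of 1141 other T cells (1.14%), and none of the epithelial or colon IL-17 T cells did. These 9 came from all 3 libraries, 6 from KO and 3 from het mice, and had a median depth of 9281 molecules against 2739 in the rest. Selp was at least 128-fold and Plvap at least 67.2-fold higher in lamina propria than in colon, where both had 0 molecules (against a floor of 3 molecules over the group). Without these cells edgeR called 438, 211 and 703 genes for epithelium to lamina propria, epithelium to colon and lamina propria to colon. Of these, 383, 203 and 598 were among the calls with all cells. Of the 521, 222 and 760 calls with all cells, 462, 215 and 709 were still tested. Single genes of these 3 contrasts are not listed without these cells.

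The study compared St8sia6 genotypes. IL-17 T cells took a higher mean share of T cells in KO than in WT mice in all 3 compartments. Each difference had the smallest p that an unpaired test of 3 libraries against 3 allows. In the epithelium they were 1.74%, 0.64% and 0.61% of T cells in KO mice (19, 6 and 6 cells), 0.46%, 0.40% and 0.28% in het mice (5, 7 and 2 cells) and 0%, 0.22% and 0.13% in WT mice (0, 1 and 2 cells). No KO library overlapped WT. The means were 1.00 ± 0.64% in KO, 0.38 ± 0.09% in het and 0.12 ± 0.11% in WT (SD, n = 3 libraries each), a KO minus WT difference of 0.88 percentage points that was 0.45 without library 1. The 0 of 344 cells in WT library 1 allows a share of up to 0.872%. Over all WT epithelial T cells the share was 0.131% (95% Clopper-Pearson interval 0.0271 to 0.383). This interval overlaps that of Epcam-positive cells of all genotypes (0.0627%, 0.00159 to 0.349), among which 0 of 1209 WT cells were positive. The shares alone thus did not set the WT level apart from background. The WT IL-17 T cells of the epithelium held 2, 46 and 1 molecules of Il17a and Il17f together.

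In the lamina propria they were 13.2%, 19.6% and 13.5% of T cells in KO mice (20, 36 and 38 cells), 8.74%, 11.2% and 8.16% in het mice (18, 17 and 8 cells) and 4.69%, 6.80% and 12.7% in WT mice (3, 7 and 7 cells). The highest WT library, library 3, is the one with the doubtful hashtag, and its interval ran from 5.27 to 24.5%. The means were 15.4 ± 3.58% in KO, 9.36 ± 1.60% in het and 8.07 ± 4.17% in WT (SD, n = 3 libraries each). KO minus WT was 7.36 percentage points, 10.7 without library 3 and 4.65 without library 2.

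In the colon they were 5.88%, 5.40% and 6.80% of T cells in KO mice (14, 15 and 21 cells), 3.12%, 2.48% and 3.30% in het mice (5, 5 and 10 cells) and 5.34%, 1.87% and 4.21% in WT mice (14, 10 and 15 cells). KO libraries lay just above the highest WT library, and het libraries fell within the WT range. The means were 6.02 ± 0.71% in KO, 2.97 ± 0.43% in het and 3.81 ± 1.77% in WT (SD, n = 3 libraries each), with KO minus WT at 2.22 percentage points.

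Each KO to WT difference had p = 0.1 in an unpaired two-sided exact permutation test, 0.15 adjusted over 6 tests. None of the 3 passes 0.05. The test did not use the pairing of genotypes within a library, whose cells shared 1 capture. With the gate as defined and all molecules kept, KO was higher than WT in 3 of 3 libraries of each compartment. For het minus WT the differences were 0.26, 1.29 and -0.84 percentage points (exact p = 0.1, 0.7 and 0.5, adjusted 0.15, 0.7 and 0.6). KO minus het was 0.62, 6.07 and 3.06 points (exact p = 0.1 each), with KO higher in 3 of 3 libraries of each compartment. Under the stricter hashtag rule the colon shares were 2.56, 3.33 and 3.72% in KO and 2.70, 2.48 and 3.30% in het, a difference of 0.38 points (exact p = 0.4) with KO lower in library 1. In colon library 1 KO was also lower than het with cells thinned to 1000 molecules, at 3.14 against 3.85%. The same held without the exclusion genes, at 4.57 against 6.61%. KO was lower than WT in that library too, at 3.14 against 3.59% when thinned and 4.57 against 7.25% without the exclusion genes. In lamina propria library 3 KO was below WT at 9.69 against 12.1% and 13.4 against 14.0% in the same 2 settings. The gate kept 14 of 31 KO and 14 of 65 WT cells with Cd3e and Il17a or Il17f in colon library 1. In the lamina propria and colon the ranges of KO and WT met under some settings. With cells thinned to 1000 molecules the colon shares were 3.14 to 4.66% in KO and 0.92 to 3.59% in WT, and the lamina propria shares 9.69 to 13.9% in KO and 3.65 to 12.1% in WT. As a share of T cells with Cd4 and without Cd8a, the lamina propria difference was 0.07 points, with KO lower in libraries 1 and 3. In the epithelium KO and WT did not overlap in any setting tried.

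**Figure D4:**
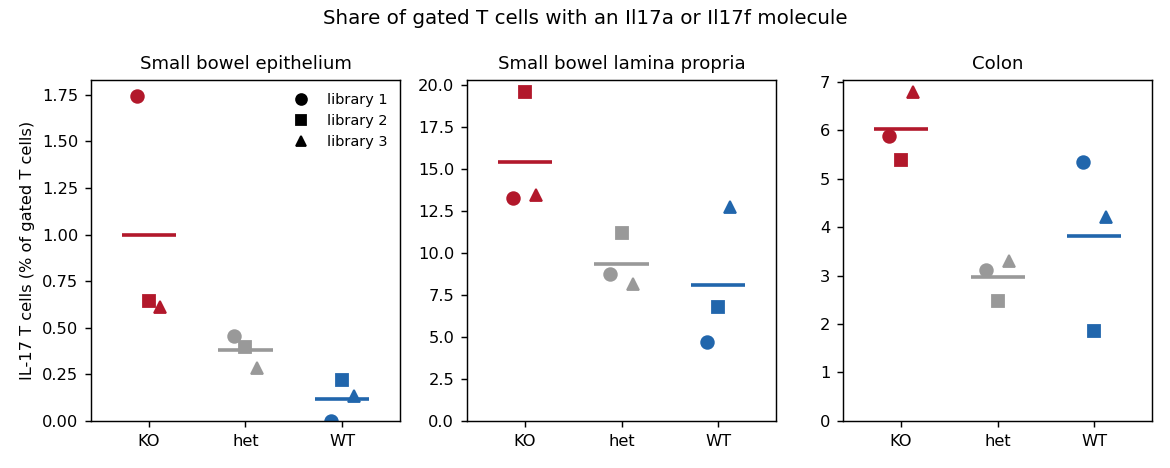
IL-17 T cells as a share of gated T cells (y axes, %), 1 panel each for epithelium, lamina propria and colon, with KO, het and WT on the x axes; each point is 1 library and the line is the mean. KO means are 1.00, 15.4 and 6.02%, against 0.12, 8.07 and 3.81% in WT.

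The same question was asked of genes the gate did not use. T cells with Il23r were 0.92 to 2.20% of epithelial T cells in KO and 0.40 to 1.16% in WT mice, 19.9, 22.8 and 20.2% in KO and 7.81, 11.7 and 20.0% in WT lamina propria, and 4.20 to 6.47% in KO and 2.99 to 4.49% in WT colon. The ranges overlapped in each compartment. Over Il23r, Il1r1 and Ccr6 in 3 compartments, KO and WT stayed apart for Il1r1 in the lamina propria alone (17.7 to 21.7% against 9.38 to 14.6%, exact p = 0.1), and no adjusted p over these 9 tests was under 0.36. The Trdc-positive share of IL-17 T cells did not differ detectably between KO and WT, by 3.51, 2.09 and 2.54 percentage points in epithelium, lamina propria and colon (exact p = 1, 0.7 and 0.9, with 2 WT libraries in the epithelium because WT library 1 had no IL-17 T cell).

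Within IL-17 T cells, genes could be compared in 11 sums of at least 10 cells, namely KO and WT colon libraries 1 to 3, het colon library 3, and KO and het lamina propria libraries 1 and 2. WT sums came from the colon alone, so the KO to WT contrast over compartments rests on the colon and reaches the lamina propria through het. Of 2916 genes edgeR called 2 between KO and WT, both lower (0.0686% of genes tested), and 1 between het and WT, also lower (0.0343%). All were cytokine genes, Il22 and Areg for KO and Areg for het, and Il22 is also on the aryl hydrocarbon receptor list, while no other listed gene was called. At an unadjusted p under 0.05 there were 112 genes for KO against WT.

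Il22 in the colon measured 482, 15.6 and 407 CPM in KO sums, held by 3 of 14, 2 of 15 and 4 of 21 cells, 1539 CPM in the het sum (4 of 10 cells), and 969, 1229 and 4632 CPM in WT sums, held by 4 of 14, 6 of 10 and 3 of 15 cells. Every KO sum lay below every WT sum. Lamina propria KO sums had 740 and 2035 CPM in libraries 1 and 2 and het sums had 2807 and 3885. KO sums were lower than WT by a fitted log2 ratio of -2.98 (with SE 0.47, edgeR adjusted p 0.0419), and without colon library 3 it was -2.63 with edgeR adjusted p 0.952. Under a gate of 2 molecules it was -2.30 (edgeR adjusted p 0.17) and in DESeq2 -3.34 (adjusted p 0.0773), neither called. For het against WT it was -1.56 and not called. Lamina propria WT cells, too few for a sum, had 304, 3434 and 4190 CPM from 1 of 3, 4 of 7 and 3 of 7 cells.

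Areg in the colon measured 321, 540 and 1108 CPM in KO sums, held by 5 of 14, 6 of 15 and 12 of 21 cells, 293 CPM in the het sum (7 of 10 cells), and 618, 1615 and 3947 CPM in WT sums, held by 6 of 14, 4 of 10 and 7 of 15 cells. KO and WT overlapped across libraries, and KO was lower within each library. The log2 ratios were -1.70 for KO to WT (SE 0.28, edgeR adjusted p 0.0419) and -2.70 for het to WT (SE 0.39, edgeR adjusted p 0.0193). Without colon library 1, 2 or 3 the KO ratio was -1.93, -1.75 and -1.28 and not called, and without colon library 3 the het ratio was -1.71 and not called. Under a gate of 2 molecules neither was called, with -1.45 for KO and -1.61 for het. Areg was detected in 46% of KO, 50% of het and 44% of WT colon IL-17 T cells.

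**Figure D5:**
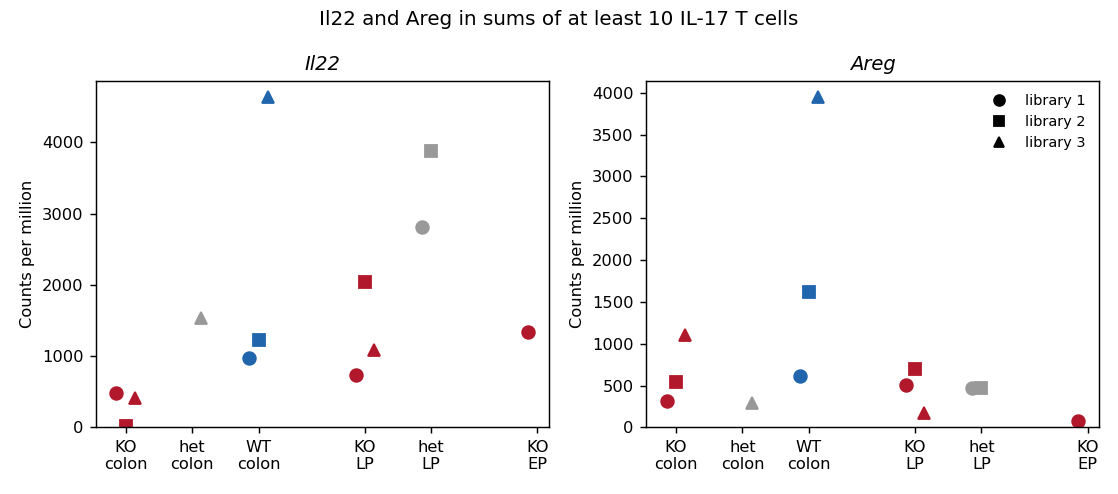
CPM of Il22 and Areg (y axes) in sums of at least 10 IL-17 T cells by compartment and genotype (x axes, LP for lamina propria and EP for epithelium); each point is 1 library, and lamina propria KO library 3 and the epithelial KO sum had no partner in the fit. Colon Il22 lies at 15.6 to 482 CPM in KO and 969 to 4632 in WT, and colon Areg at 321 to 1108 CPM in KO and 618 to 3947 in WT.

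With the colon contrast taken alone, edgeR called 0 genes (111 at an unadjusted p under 0.05, and 1 called by DESeq2), with Areg at -1.53 (adjusted p 0.055) and Il22 at -3.05 (adjusted p 0.138). Without the 9 cells with endothelial genes, none of them from the colon, edgeR called both, at -1.54 (adjusted p 0.0255) and -3.06 (adjusted p 0.0216). Without colon library 1 the Il22 ratio was -4.14 and called. Contrasts of KO with WT within the lamina propria or epithelium, and of the KO effect between compartments, had no WT sum outside the colon.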

How the data were processed

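The authors deposited raw UMI counts per gene and cell and per hashtag and cell, without normalization. Columns with the unit other hold deposited gene, hashtag and barcode names. Cell Ranger, Seurat and the mm10 build are named in the submitters' processing notes, and their versions are not given in the sources used here. Of 60272 deposited cells, 934 with 20% or more mitochondrial counts were removed.

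Each compartment held 9 barcode endings, read as 3 libraries of 3 genotypes. No barcode was shared within such a library, while 139, 190 and 197 were shared between libraries of the epithelium, lamina propria and colon. The genotype of an ending was its hashtag with the highest median. Endings were not tied to single samples, so libraries of different compartments were not paired. The members and gene lists were chosen with earlier results of these data known.

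Counts were summed per library and class, and by genotype where that was compared, leaving out sums under 10 cells. They were tested by edgeR 4.0.16 in R 4.3.3 (quasi-likelihood test after filterByExpr and TMM, Benjamini-Hochberg over all tested genes, threshold 0.05). The library was a block, since its cells shared 1 capture; contrasts of compartments had no block. The 7 selecting genes were left out of the calls. Named genes are members of the lists or among the 10 smallest p in each direction, and immunoglobulin and T cell receptor variable genes were not ranked for naming; 1 further gene is not reported here. Shares were compared with exact permutation tests (scipy 1.17.1) that were unpaired, also between genotypes of the same libraries. The p-values measure the spread between libraries, which may be technical. No doublet caller was run; a repeat left out cells above the 95th percentile of molecules in their ending. Further repeats used DESeq2 1.42.0, RLE factors, no count filter, a gate of 2 molecules, a minimum of 5 cells, no block, cells of 2000 to 10000 molecules and each library left out. Those on the exclusion genes, the denominator, Cd4-positive cells and endothelial genes were added after seeing the data. The methods were tested on simulated data.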

Additional observations from a re-analysis of the deposited data

How the results depend on the processing

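The mean KO minus WT share of IL-17 T cells kept its sign in all 3 compartments under every alternative run. The smallest was 0.065 points in lamina propria among Cd4-positive, Cd8a-negative cells, against 7.36. The mean het minus WT share did not keep its sign. In the colon it was -0.84 percentage points, and 0.343 thinned to 1000 molecules, 1.18 with the hashtag share per cell, 0.506 without the exclusion genes, 0.076 as a share of all cells and 2.82 among Cd4-positive, Cd8a-negative cells. In the lamina propria it was 1.29, and -4.75 among Cd4-positive, Cd8a-negative cells, and -0.257 to 4.22 with each library left out. The Trdc-positive share, KO minus WT, ran from -4.52 to 7.38 in colon, -4.37 to 7.50 in lamina propria (-2.05 with a gate of 2 molecules) and 0 to 5.26 in the epithelium with each library left out. For epithelium minus lamina propria it ran from -1.27 to 4.25, and was -0.136 without the deepest cells. The cause of these changes was not tested.

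Counts of called genes moved as follows. KO against WT had 2 calls, 2 with a gate of 2 molecules, 3 in DESeq2, 21 without the low count filter, 0 with a minimum of 5 cells, 4 without cells with endothelial genes and 0 to 4 with each library left out. Het against WT had 1, 16 without the filter, 2 in DESeq2, 2 with a gate of 2 molecules, 0 with a minimum of 5 cells, 2 without endothelial-gene cells and 1 to 4 with each library left out. Without the library as a replicate block both had 0 calls, in a fit that also held 13 sums and 3132 genes against 11 and 2916. The 2 genes called with a gate of 2 molecules were other genes in each contrast, 0 shared with Il22 and Areg, and DESeq2 called Areg but not Il22 for KO. The 1 gene called for het without colon library 3 was not Areg. KO against WT in the colon had 0, 13 without the filter, 1 in DESeq2, 2 with a gate of 2 molecules, 2 without endothelial-gene cells and 0 to 3 with each library left out. IL-17 against other T cells had 552 in the epithelium, 536 in lamina propria and 973 in colon, 139, 140 and 396 with Cd4-positive, Cd8a-negative cells only, and 289 to 662, 317 to 656 and 567 to 1043 with each library left out. Epithelium against colon had 222, 408 without the filter, 101 with Trdc-zero cells and 102 to 198 with each library left out. Epithelium against lamina propria had 521, 787 without the filter and 307 to 539 with each library left out. Lamina propria against colon had 760, 462 in DESeq2 and 457 to 840 with each library left out.

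Of 245 called values of genes named or ranked for naming, repeated 4442 times, 4220 repeats kept their call and sign, 216 lost the call and 6 turned. These 6 came with Cd4-positive, Cd8a-negative cells in both classes: colon Ccl4 0.60, Ccr9 1.06, Cd7 0.0742, Gzma 0.53 and Pdcd1 -0.70, and lamina propria Maf -0.14. Over all called genes more signs turned. In that setting 412 of 434 retested calls kept their sign in the epithelium, 452 of 459 in lamina propria and 708 of 771 in colon. Signs also turned in some other settings. Without cells with endothelial genes, 501 of 510 retested lamina propria calls of IL-17 against other T cells kept theirs. Genotype sums held only 10 to 36 cells. Genotype genes with the hashtag share per cell, KO against WT within lamina propria or epithelium, the KO effect between compartments, Trdc-positive against Trdc-zero genes and compartments in WT cells alone were not run with at least 10 cells per sum. With at least 5, edgeR called 0 genes for KO against WT in lamina propria (102 at an unadjusted p under 0.05) and 0 for the effect between compartments (58). Lamina propria WT library 3 had 7 cells and was in no sum, so leaving it out moved no gene call by construction.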
